A study of Mus musculus with 8 samples.

Results

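The C1q/TNF-related genes encode secreted proteins that share a globular C1q domain with adiponectin. The 9 members described here, C1qtnf1, C1qtnf2, C1qtnf3, C1qtnf4, C1qtnf5, C1qtnf6, C1qtnf7, C1qtnf9 and C1qtnf12, are the rows of the deposited expression table that carry these gene names, 9 of 55679 genes. RNA-seq was carried out on the left ventricles of male wild-type (WT) C57BL/6J mice. The control group (n = 4) received saline for 7 days and the ANG II group (n = 4) received the pressor peptide angiotensin II at 1500 ng/kg/min for 7 days, both through osmotic pumps under the skin. No allele other than wild type was used in either group, and the age of the mice was not given in the sources used here. The study named C1qtnf6 among the genes it selected from RNA-seq of such hearts, which may include these libraries, so the rise of C1qtnf6 itself is not independent evidence. The question was whether that rise was shared by the other members.

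Most C1q/TNF-related proteins carry a collagen-like stalk and a C1q head, assemble into trimers and larger complexes, and circulate in blood or stay in the matrix around the cell that made them. Several of them act on metabolism through the receptors used by adiponectin and the energy-sensing kinase AMPK, and some have been studied as protective or profibrotic factors in the heart and vessel wall. The C1q head is also the recognition unit of complement component C1q, and C1QTNF6 has been described as an inhibitor of the alternative complement pathway.

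Expression was measured as FPKM, fragment counts divided by the kilobases of transcript and by the depth of mapped fragments, in which levels can be compared between genes per length. Each library held 14455797 to 16564519 fragments, as read from the steps between low values. The tissue label was checked against its markers, and the 7 cardiomyocyte genes summed to 41590 to 42520 FPKM in the controls and 30430 to 33350 FPKM in ANG II libraries. Of the 7, 2 were called lower, beside 1.41% of all genes. With median-of-ratios scaling 5 were called lower, beside 803 of all 19364 genes tested, and with quantile normalization 1, beside 986 of 19364. The list medians were -0.48, -0.70 and -0.10 on the log2 scale, in that order. The libraries also differed in markers of other cells. Fibroblast markers (7 genes) summed to 1049 to 1416 FPKM in the controls and 2224 to 2516 FPKM in ANG II libraries, and 6 of the 7 were called higher, beside 14.0% of all genes. The other marker, Gsn, the most abundant of them, went from 818.8 to 587 FPKM (limma adjusted p 0.0280) without a call, and was looked up after its value was seen. With median-of-ratios scaling 5 fibroblast markers were called higher and Gsn lower, and with quantile normalization 4 higher and Gsn lower. Of all genes, 8.63% were called higher with the former scaling and 7.3% with the latter, and those called lower are given above. Activated fibroblast markers (Postn, Cthrc1, Comp, Fn1 and Acta2) summed to 139.2 to 220.5 against 873.9 to 1262 FPKM, with 4 of 5 called higher. The exception was Acta2, at 108.1 and 92.6 FPKM. The macrophage markers (6 genes) summed to 65.7 to 73.5 against 148.2 to 198.1 FPKM, with 6 of 6 called higher (5 of 6 under either other scaling). Adipocyte markers (7 genes) summed to 319.5 to 389.3 against 329.5 to 400.6 FPKM. None of the 6 that were tested was called with the deposited scaling, and Pnpla2 was called lower under either other scaling. Most of that sum was Fabp4 (mean 163 against 220.2 FPKM) and Pnpla2 (172.9 against 138.5 FPKM), which went opposite ways. Adipoq, the adiponectin gene that defines this cell type, lay between 0 and 1.44 FPKM in all 8 libraries. Plin1, Cidec and Lep reached at most 1.04 FPKM. These values were looked up afterwards. Endothelial markers (5 genes) summed to 316 to 336.7 against 361.1 to 412.3 FPKM with 1 called higher, and smooth muscle and pericyte markers (5 genes) to 362.7 to 387.1 against 433.3 to 471.2 FPKM with 2 called higher. Those calls were 0 and 1 under either other scaling. Of 5 skeletal muscle markers, 2 were tested, Acta1 and Tnnt3, and both were called higher. The myosin genes Myh1, Myh2 and Myh4 of that list, looked up afterwards, lay between 0 and 0.101 FPKM in every library and were not tested. None of 4 mesothelial markers was called. Haemoglobin genes (4, all called higher) summed to 95.3 to 480.5 against 570.9 to 2039 FPKM, and 4 atrial genes to 7.72 to 58.5 against 194.9 to 339 FPKM. Of that last sum, 6.56 to 11.1 against 108.5 to 160.9 FPKM was Nppa, a gene also known from stressed ventricle. Nppa and Sln were called higher, Sln not under either other scaling. Myl7 (0.205 to 21.1 against 21.8 to 89.6 FPKM) and Myl4 (0.9503 to 25.2 against 26.3 to 127.5 FPKM) did not overlap between groups but were not called. Of all genes, 28.7% did not overlap with ANG II higher. With limma voom on the fragments all 4 were called higher, beside 18.9% of all genes. The part of these markers in the results below was not tested, and in bulk tissue fewer cells of a type and less RNA per cell cannot be told apart.

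The sequences just before the RefSeq start sites of 3 members are shown because these members span the range of responses described next, from the largest rise to no call. C1qtnf3 and C1qtnf6 were called higher and C1qtnf9 was not called. RefSeq (GRCm38.p6) gave the 250 bases upstream of the start for 6 of the 9 members, C1qtnf2, C1qtnf3, C1qtnf5, C1qtnf6, C1qtnf7 and C1qtnf9. No window was matched for C1qtnf1, C1qtnf4 and C1qtnf12. Starts are those of RefSeq, and the C1qtnf6 window lies inside the GENCODE M21 gene, which begins further upstream. The windows are written 5′ to 3′ on the gene's strand, and capitals mark matches on either strand to AP-1 (TGANTCA), TEAD (GGAATG), SMAD (CAGAC) and TATA box (TATAAA) motifs, chosen with the expression values known.
C1qtnf3 (chr15:10952082-10952331, plus strand): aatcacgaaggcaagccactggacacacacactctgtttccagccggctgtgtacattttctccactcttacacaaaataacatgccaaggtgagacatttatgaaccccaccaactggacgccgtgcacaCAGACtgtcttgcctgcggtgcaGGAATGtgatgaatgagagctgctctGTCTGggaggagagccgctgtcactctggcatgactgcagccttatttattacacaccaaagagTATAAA
C1qtnf6 (chr15:78529652-78529901, minus strand): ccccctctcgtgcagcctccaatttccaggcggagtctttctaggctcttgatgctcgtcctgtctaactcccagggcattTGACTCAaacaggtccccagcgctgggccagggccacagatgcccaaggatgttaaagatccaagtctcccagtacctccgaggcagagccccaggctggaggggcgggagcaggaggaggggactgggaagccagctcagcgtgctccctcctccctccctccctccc
C1qtnf9 (chr14:60767884-60768133, plus strand): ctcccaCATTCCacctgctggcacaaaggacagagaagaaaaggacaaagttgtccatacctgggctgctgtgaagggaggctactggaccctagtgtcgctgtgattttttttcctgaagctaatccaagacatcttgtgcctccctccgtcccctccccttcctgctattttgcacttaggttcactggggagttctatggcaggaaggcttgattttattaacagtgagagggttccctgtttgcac
The C1qtnf3 window held 2 SMAD matches, a TEAD match and a TATAAA 6 to 1 bases before the start. The C1qtnf6 window held 1 match, to AP-1, 169 to 163 bases before the start, and the C1qtnf9 window 1 match, to TEAD. Of 32851 windows of the same length, 6.75% held the AP-1 letters, 12.6% the TEAD letters, 42.2% the SMAD letters and 12.4% the TATA box, and no window of the 6 members held a CArG box, against 1.47% of all. The C1qtnf7 window held a TEAD match, the C1qtnf2 window a SMAD match and the C1qtnf5 window, which has the same coordinates as that of Mfrp, one of each. Each match is a description of letters and not of binding. GC content of the 3 printed windows was 49.2% for C1qtnf3, 62.8% for C1qtnf6 and 50% for C1qtnf9.

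**Figure D1:**
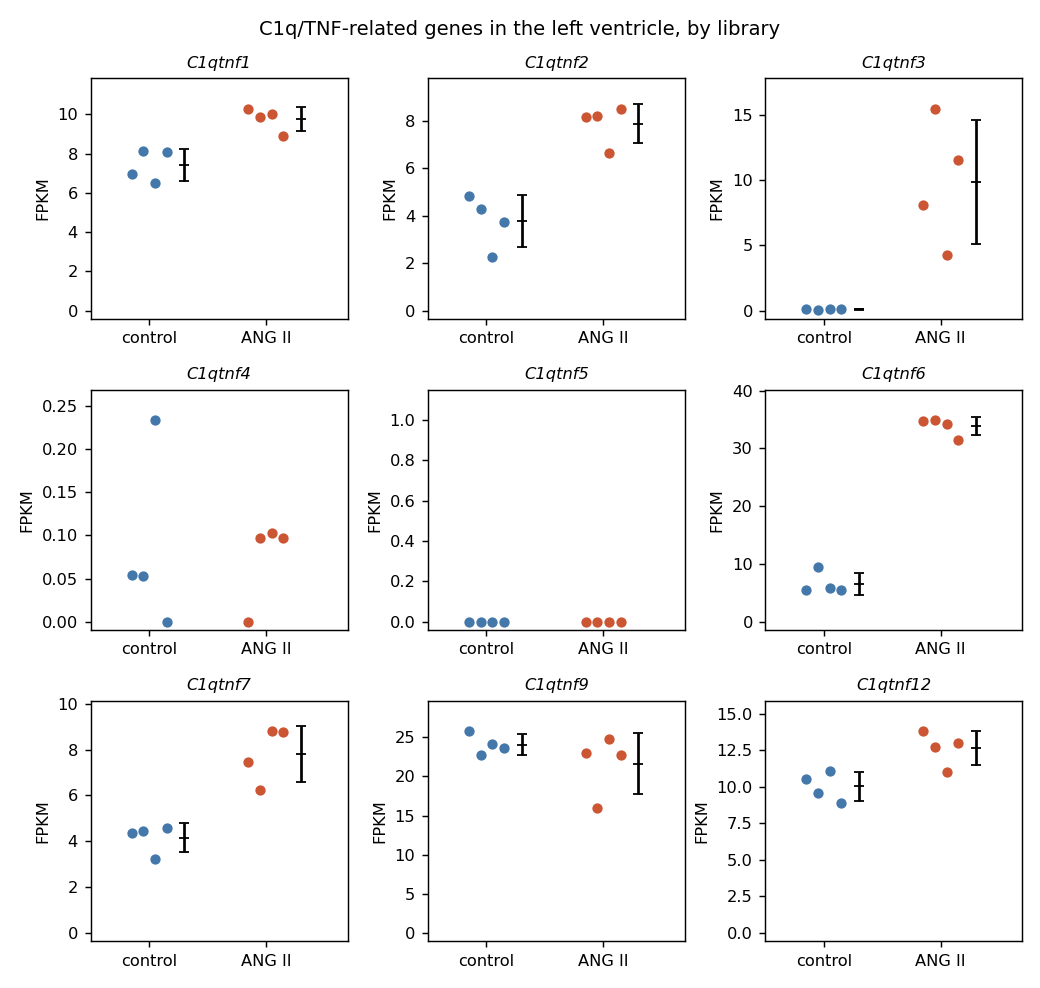
FPKM (vertical axis, a separate linear scale per panel) of the 9 members in 4 control (blue) and 4 ANG II (red) libraries, each point a library in the order of its replicate number, with the mean and SD as black bars except for C1qtnf4 and C1qtnf5, which are at or near 0. The groups do not overlap in the panels of C1qtnf1, C1qtnf2, C1qtnf3, C1qtnf6 and C1qtnf7, while those of C1qtnf9 and C1qtnf12 do.

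The rise of C1qtnf6 was shared in direction by part of the family. Genes were compared with limma on log2(FPKM + 1), and a gene was called when it had a Benjamini-Hochberg adjusted p under 0.05 together with a log2 fold change beyond 0.5 in either direction. Of the 9 members, 7 passed the filter of a mean of at least 0.1 FPKM, and C1qtnf3 passed it only through its ANG II libraries. C1qtnf2, C1qtnf3, C1qtnf6 and C1qtnf7 were called higher in ANG II, and no member was called lower. Among all 19364 genes tested, 14.0% were called higher and 1.41% lower. By adjusted p alone, 6 of the 7 were higher, against 28.4% of all genes, and the groups did not overlap, with ANG II higher, for 5 of the 7, against 28.7% of all genes. With either other scaling the adjusted p was under 0.05 for 4 members that were higher and 1 that was lower (C1qtnf9). Beside these, 14.6% of all genes were higher and 13.1% lower with median-of-ratios scaling, and 12.5% and 15.3% with quantile normalization. The median log2 fold change was 0.77 over the 7 members and 0.15 over all genes tested. C1qtnf6 is among these counts although its rise posed the question. Of the other 6 tested members, 3 were called higher, 5 were higher by adjusted p and 4 did not overlap, with a median of 0.56. Without C1qtnf3 as well, which had to be high in ANG II to be tested, 2 of 5 were called higher, 4 were higher by adjusted p and 3 did not overlap, with a median of 0.36. After median-of-ratios scaling of the libraries the median of all genes was 0.0042, so the change of each member is also given relative to the median of all genes.

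C1qtnf6 lies at chromosome 15, 78523346 to 78531416, minus strand (GRCm38, GENCODE M21, as for the gene positions below), and its product CTRP6 is a secreted protein linked to complement control, adipose tissue inflammation and fibroblast activation. Its levels were 5.52, 9.43, 5.82 and 5.48 FPKM in control libraries 1 to 4 and 34.8, 34.9, 34.3 and 31.5 FPKM in ANG II libraries 1 to 4. Control 2 stood above the other controls, the ANG II libraries lay close together, and the groups were far apart. Here and below, means are given with the SD over the 4 libraries of a group. The control mean of 6.56 ± 1.92 FPKM and the ANG II mean of 33.9 ± 1.60 FPKM stood in a ratio of 5.16. The fitted log2 change was 2.23 (95% interval 1.92 to 2.55, SE 0.14) at an adjusted p of 7.63e-06 by limma, which is 2.09 above the median of all genes. The counts behind these values were 120 to 207 fragments in control and 757 to 838 in ANG II libraries. An opposite-strand gene, Gm49490, overlaps 4.33% of its exon length, and use of strand in counting was not given in the sources used here.

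C1qtnf3, at chromosome 15, 10952332 to 10980150, plus strand, encodes CTRP3 (cartducin), a secreted protein first described in growing cartilage and made by several tissues. It was close to undetected in control, at 0.125, 0.0619, 0.109 and 0.0886 FPKM, and reached 8.14, 15.5, 4.27 and 11.5 FPKM in ANG II libraries 1 to 4. Every ANG II library was above every control library, and ANG II 3 was the lowest and ANG II 2 the highest of the treated group. The means were 0.0962 ± 0.0273 and 9.86 ± 4.79 FPKM. On the log2(FPKM + 1) scale the difference was 3.19 (95% interval 2.54 to 3.84, SE 0.29) at an adjusted p of 5.24e-05 by limma, rank 19 among all genes tested and 3.04 above the median gene. This scale understates the change of a gene so near 0 in control.

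The fragments behind the C1qtnf3 values numbered 4, 2, 4 and 3 in the controls and 273, 547, 143 and 408 in the ANG II libraries, 13 against 1371 in all. The ratio of fragment rates was 103.3, with an exact 95% interval of 60.2 to 194.5 that covers counting error only and not the spread between hearts. With a pseudocount of 0.1 the log2 fold change was 5.53. ANG II 3, the treated library with the least C1qtnf3, also had the lowest summed activated fibroblast markers of its group (873.9 FPKM), and ANG II 2, with the most C1qtnf3, had the highest (1262 FPKM). The other two went the opposite way, since ANG II 1 had 1222 FPKM of these markers with 8.14 FPKM of C1qtnf3 and ANG II 4 had 977.4 FPKM with 11.5 FPKM. C1qtnf3 shared no exon length with another annotated gene.

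C1qtnf2, at chromosome 11, 43474276 to 43491525, plus strand, encodes CTRP2, a relative of adiponectin studied in lipid metabolism. Levels were 4.81, 4.26, 2.25 and 3.73 FPKM in the controls and 8.14, 8.20, 6.66 and 8.51 FPKM in ANG II. The groups did not overlap, and the lowest value of each group was in library 3. The means were 3.76 ± 1.10 and 7.88 ± 0.8287 FPKM, a ratio of 2.09. The fitted log2 change of 0.93 ± 0.17 (SE) had an adjusted p of 0.00243 by limma and was 0.78 above the median gene.

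C1qtnf7, at chromosome 5, 43515538 to 43618803, plus strand, encodes CTRP7, studied in glucose metabolism. It measured 4.36, 4.45, 3.24 and 4.59 FPKM in the controls and 7.46, 6.25, 8.81 and 8.76 FPKM in ANG II. Every treated library was above every control, and control 3 was again the lowest control. The means were 4.16 ± 0.620 and 7.82 ± 1.22 FPKM. The fitted log2 change of 0.77 ± 0.13 (SE) had an adjusted p of 0.00148 by limma, and was 0.62 above the median gene. After quantile normalization the fold change was 0.46, under the threshold of 0.5, and the call was lost.

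C1qtnf1, at chromosome 11, 118428203 to 118449963, plus strand, encodes CTRP1, which is made in the vessel wall and binds collagen. Its levels were 6.95, 8.11, 6.51 and 8.10 FPKM in the controls and 10.3, 9.86, 10.0 and 8.88 FPKM in ANG II. The groups did not overlap but lay close together. The fitted log2 change was 0.36 (95% interval 0.16 to 0.56, SE 0.089), 0.21 above the median gene. Its adjusted p by limma was 0.0117, and it missed the fold threshold. With median-of-ratios scaling its limma adjusted p was 0.256. The opposite-strand gene Gm11747 covers 20.5% of its exon length, so reads of the pair may be mixed.

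C1qtnf12, at chromosome 4, 155962318 to 155966629, plus strand, encodes adipolin, an insulin-sensitizing factor of adipose tissue. It measured 10.6, 9.61, 11.1 and 8.90 FPKM in the controls and 13.8, 12.7, 11.0 and 13.0 FPKM in ANG II. ANG II 3 lay within the control range, so the groups overlapped by 1 library. The fitted log2 change was 0.31 ± 0.090 (SE), 0.16 above the median gene, at an adjusted p of 0.0255 by limma, and no call was made because the fold threshold was not reached. The adjusted p was 0.456 with median-of-ratios scaling and 0.676 with quantile normalization, both by limma. It rose above 0.05 without control 2 (0.0569), control 4 (0.0700), ANG II 1 (0.0755), ANG II 2 (0.0552) or ANG II 4 (0.0614), again by limma.

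C1qtnf9, at chromosome 14, 60768134 to 60780869, plus strand, encodes CTRP9, the member closest in sequence to adiponectin and known for its expression in heart and fat. It was the most abundant member in control, at 25.8, 22.7, 24.1 and 23.6 FPKM, and measured 22.9, 16.0, 24.8 and 22.8 FPKM in ANG II. The groups overlapped, and ANG II 2 alone lay well below the others. The means were 24.1 ± 1.31 and 21.6 ± 3.86 FPKM. The fitted log2 change was -0.16 (95% interval -0.43 to 0.10, SE 0.12) at an adjusted p of 0.331 by limma, and -0.31 relative to the median gene. Without ANG II 2 it was -0.03. With median-of-ratios scaling it was -0.38, with a limma adjusted p of 0.0304, below the fold threshold for a call.

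C1qtnf4 and C1qtnf5 gave no usable level. C1qtnf4, at chromosome 2, 90885860 to 90890525, plus strand, encodes a member with a pair of C1q domains studied mainly in brain. It measured 0.0536, 0.0531, 0.234 and 0 FPKM in the controls and 0, 0.0972, 0.103 and 0.0970 FPKM in ANG II, which is at most 5 fragments in a library, and its mean of 0.0797 FPKM fell under the filter. C1qtnf5, at chromosome 9, 44107245 to 44109187, plus strand, encodes a protein of the retinal pigment epithelium and was listed at 0 in all 8 libraries. All of its exon length (100%) lies under the same-strand gene Mfrp, and 84.5% of its 50-base words occur in other transcripts. Among protein-coding genes with at least 95% of their exon length under other genes, 218 of 241 (90.5%) were listed at 0 in every library, against 4165 of 17882 (23.3%) with under 5% covered. Whether C1qtnf5 is expressed in these ventricles was therefore not measured here.

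**Figure D2:**
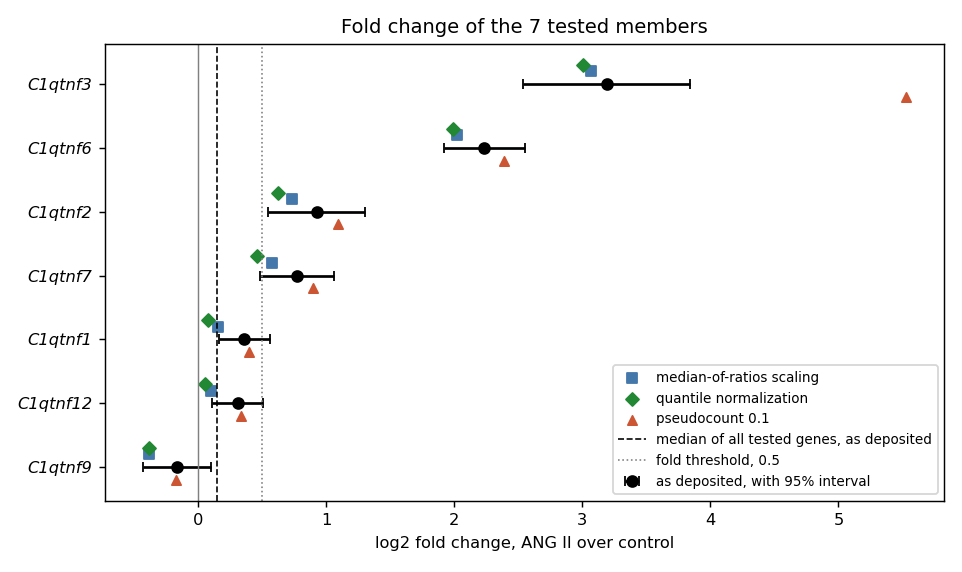
Log2 fold change of ANG II over control (horizontal axis) for the 7 tested members, with the deposited scaling (black points, 95% interval) and under 3 alternatives (coloured symbols). The dashed line is the median of all tested genes (0.15) and the dotted line the fold threshold of 0.5. C1qtnf3 and C1qtnf6 stand far to the right at every setting shown, and C1qtnf1 and C1qtnf12 move to near 0 with the other scalings.

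The rise of C1qtnf6 was set against that of the other members within each library, as log2(C1qtnf6 + 1) minus log2(member + 1). Such a difference is free of the scaling of a library apart from the pseudocount. It was compared between groups by a two-sided exact permutation test over the 70 allocations of 8 libraries. The 6 members with a usable level gave 6 pairs, adjusted together by the Benjamini-Hochberg method, and the smallest p that this design allows is 0.0286. C1qtnf6 rose more than C1qtnf1 by 1.88 (95% interval 1.52 to 2.23), than C1qtnf12 by 1.93 (1.43 to 2.43) and than C1qtnf9 by 2.40 (1.80 to 3.00). It rose more than C1qtnf2 by 1.31 (0.74 to 1.88) and than C1qtnf7 by 1.46 (0.94 to 1.99). Each of these 5 differences had an exact p of 0.0286, the smallest possible, and an adjusted p of 0.0343, and in each the control and ANG II libraries did not overlap. Since C1qtnf6 was selected by the study, possibly on these libraries, its side of each difference is not independent evidence, and these p-values carry that limit.

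C1qtnf3 was the member whose rise was not shown to differ from that of C1qtnf6. The difference was -0.95 (95% interval -1.94 to 0.03) with an exact permutation p of 0.114, adjusted 0.114, so a larger rise of C1qtnf3 is within the interval. This result depended on the scale and on 1 library. With a pseudocount of 0.1 the difference was -3.14, and without ANG II 3 it was -1.27, each with an adjusted exact p of 0.0286.

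**Figure D3:**
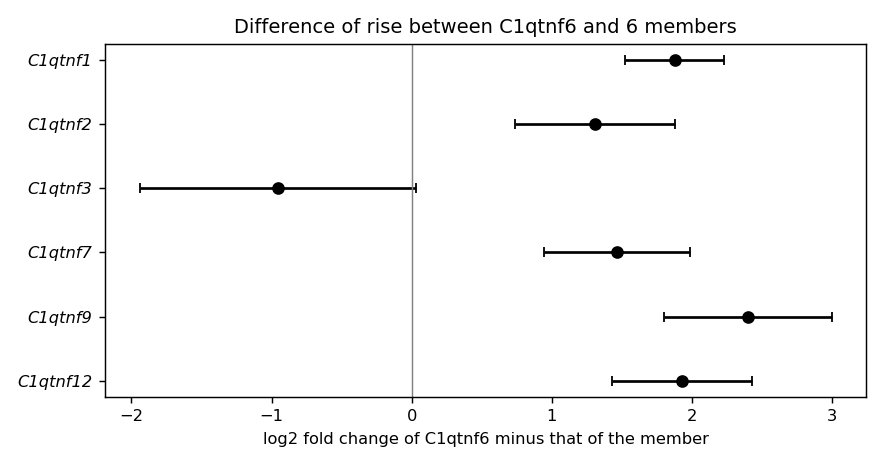
Difference between the log2 fold change of C1qtnf6 and that of each of 6 members (horizontal axis, log2 units), with 95% intervals as bars. The points of C1qtnf1, C1qtnf2, C1qtnf7, C1qtnf9 and C1qtnf12 lie between 1.31 and 2.40, and the interval of C1qtnf3 (-1.94 to 0.03) reaches just past 0.

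The makeup of the family's transcripts differed between the groups. The summed level of the 9 members was 56.2 ± 2.65 FPKM in control (53.4 to 58.7) and 103.6 ± 2.56 FPKM in ANG II (99.95 to 105.6). C1qtnf9 made up 42.9% ± 2.91 of this sum in control and 20.9% ± 3.93 in ANG II, and C1qtnf6 11.6% ± 3.01 and 32.7% ± 1.92. C1qtnf3 went from 0.172% ± 0.0497 to 9.48% ± 4.57. C1qtnf12 went from 17.9% ± 2.07 to 12.2% ± 0.862 and C1qtnf1 from 13.2% ± 1.39 to 9.43% ± 0.685, while their mean FPKM were higher in ANG II. The ranges of these 5 shares did not overlap between groups. A share is relative to the summed level, which was itself higher in ANG II. C1qtnf7 held 7.39% ± 0.976 in control and 7.56% ± 1.26 in ANG II.

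In control, mean levels per length ran in the order C1qtnf9, C1qtnf12, C1qtnf1, C1qtnf6, C1qtnf7, C1qtnf2, C1qtnf3, C1qtnf4 and C1qtnf5. The ranges of C1qtnf1 and C1qtnf6, of C1qtnf7 and C1qtnf2, and of the last 3 overlapped with their neighbours. In ANG II the order was C1qtnf6, C1qtnf9, C1qtnf12, C1qtnf3, C1qtnf1, C1qtnf2, C1qtnf7, C1qtnf4 and C1qtnf5. There the ranges of C1qtnf12, C1qtnf3 and C1qtnf1 overlapped in turn, as did those of C1qtnf2 and C1qtnf7 and those of C1qtnf4 and C1qtnf5. The order depends on the length used. The deposited values divide by the mean transcript length, and with the longest transcript the ANG II means would be 21.6 FPKM for C1qtnf9 and 21.2 FPKM for C1qtnf6, which reverses the first pair. The same choice swaps C1qtnf12 with C1qtnf3 and C1qtnf1 with C1qtnf2 in ANG II, and C1qtnf7 with C1qtnf2 in control.

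**Figure D4:**
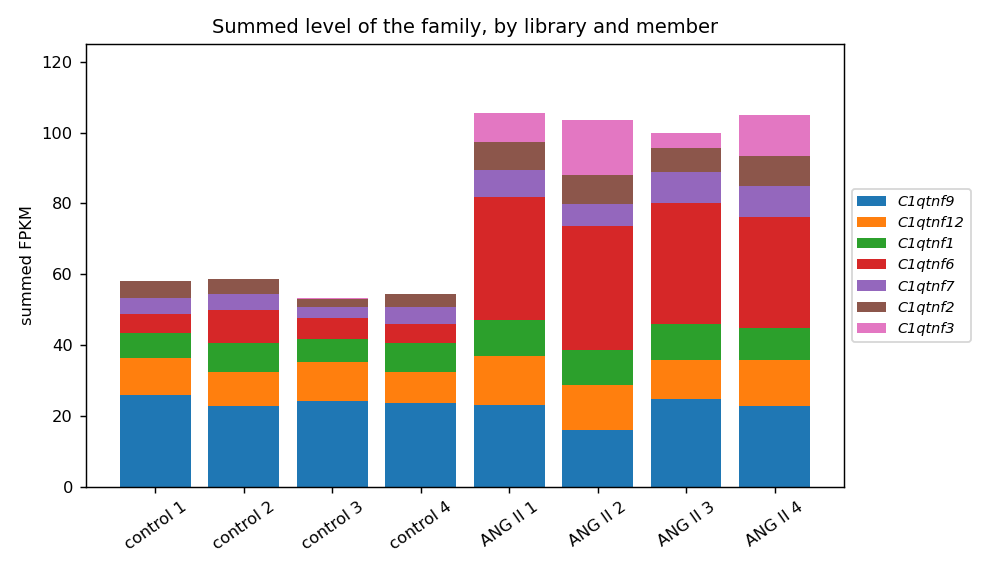
Summed FPKM (vertical axis, linear from 0) of 7 members in each of the 8 libraries, stacked by member. C1qtnf4 and C1qtnf5, at most 0.234 FPKM in a library, are not drawn. With them the sums are 53.4 to 58.7 FPKM in control and 99.95 to 105.6 FPKM in ANG II, and the C1qtnf6 and C1qtnf3 segments are taller in every ANG II bar.

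Genes whose pattern was most like that of C1qtnf6 were named by Pearson's r of log2(FPKM + 1) among the 12947 tested genes that averaged 1 FPKM or more. Over all 8 libraries these were Asah2 (a ceramidase, r = 0.997), Fcrls (a macrophage surface gene, 0.997), Fkbp10 (a collagen chaperone, 0.996), Arl8a (0.995) and Tpd52 (0.995). Since the libraries form 2 groups, these values mostly describe the difference between the groups. After the group mean was taken from each library, the highest were Prkacb (0.971), Lrp10 (0.971), Fkbp10 (0.967), Asah2 (0.964) and Nt5dc2 (0.960), over 8 libraries that share their groups and scaling. They rested on control 2, without which they were 0.424, 0.736, 0.496, 0.651 and 0.407 in the same order. Within the family, the group-centred r with C1qtnf6 ran from -0.26 for C1qtnf9 to 0.52 for C1qtnf1. Without control 2 they ran from -0.72 for C1qtnf7 to 0.21 for C1qtnf1, with C1qtnf9 at -0.32.

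Other genes with a C1q domain were examined as a list of 22. Of these, 13 were tested, 6 were called higher and 1 lower, beside 14.0% and 1.41% of all genes, with a median log2 fold change of 0.44 against 0.15 for all genes. The largest changes were in Col8a1 and Col8a2, the chains of the short-chain collagen VIII, and in Emilin1, an elastic fibre protein. Col8a1 measured 8.26, 11.6, 7.92 and 11.0 FPKM in the controls and 119.3, 115.2, 67.4 and 89.7 FPKM in ANG II, with no overlap. Its log2 change of 3.19 had an adjusted p of 4.70e-06 by limma. Col8a2 averaged 0.709 ± 0.563 FPKM in the controls and 12.99 ± 5.47 FPKM in ANG II, with ANG II 3 lowest of its group at 4.92 FPKM, as for C1qtnf3. Emilin1 averaged 12.1 ± 1.97 FPKM in the controls against 41.8 ± 1.84 FPKM. The other calls, looked up after their values were seen, were C1qa (log2 fold change 1.43), C1qb (1.49) and C1qc (1.39), the chains of complement C1q made by macrophages, and Emilin2, which fell from 25.6 ± 3.87 to 16.2 ± 0.289 FPKM. All 7 calls were also made with median-of-ratios scaling and quantile normalization. Adiponectin itself (Adipoq) was not called.

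The receptors and the AMPK pathway through which these ligands are thought to act gave no call with the deposited scaling and all libraries. Of 16 genes, 15 were tested and 0 were called, beside 14.0% higher and 1.41% lower of all genes. The median log2 fold change was 0.09, and -0.13 with median-of-ratios scaling or -0.12 with quantile normalization. By limma adjusted p alone, counted with the deposited scaling only, 6 were higher, beside 28.4% of all genes, and 1 was lower. The 6 had log2 fold changes of 0.18 to 0.41, beside a median of 0.15 for all genes. The 1 that was lower is given without a share of all genes. Examples are Cdh13 (T-cadherin, an adiponectin-binding receptor), from 75.6 ± 3.17 to 90.3 ± 4.27 FPKM (adjusted p 0.00418), and Acacb, the AMPK substrate acetyl-CoA carboxylase 2, from 73.4 ± 5.26 to 52.4 ± 2.63 FPKM (limma adjusted p 3.76e-04). These examples were chosen after their values were seen. Acacb was called lower with median-of-ratios scaling (-0.70), with quantile normalization (-0.65), without control 1 (-0.53) and without ANG II 4 (-0.51). The adiponectin receptor gene Adipor1 measured 76.6 ± 3.86 and 81.8 ± 1.51 FPKM.

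Of 10 genes of the alternative complement pathway, 9 were tested and 5 were called higher, 0 lower, beside 14.0% and 1.41% of all genes, with a median log2 fold change of 0.61. The largest changes were in C3ar1, the receptor of the C3a fragment (1.88 ± 0.4996 to 7.83 ± 2.07 FPKM), C3, the central component (76.1 ± 26.5 to 211.1 ± 58.5 FPKM), and C5ar1, the C5a receptor (2.82 ± 0.797 to 8.85 ± 1.03 FPKM). Cfp, which stabilizes the convertase of the pathway, was also called, at 0.57, and was looked up after its value was seen. The Cfp call was lost with median-of-ratios scaling, and quantile normalization gave 4 calls higher and 1 lower (Cd46, also looked up afterwards). With quantile normalization 7.3% of all genes were called higher, and 986 of 19364 lower. The macrophage markers given above rose in the same libraries, and their part in these values was not tested.

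**Figure D5:**
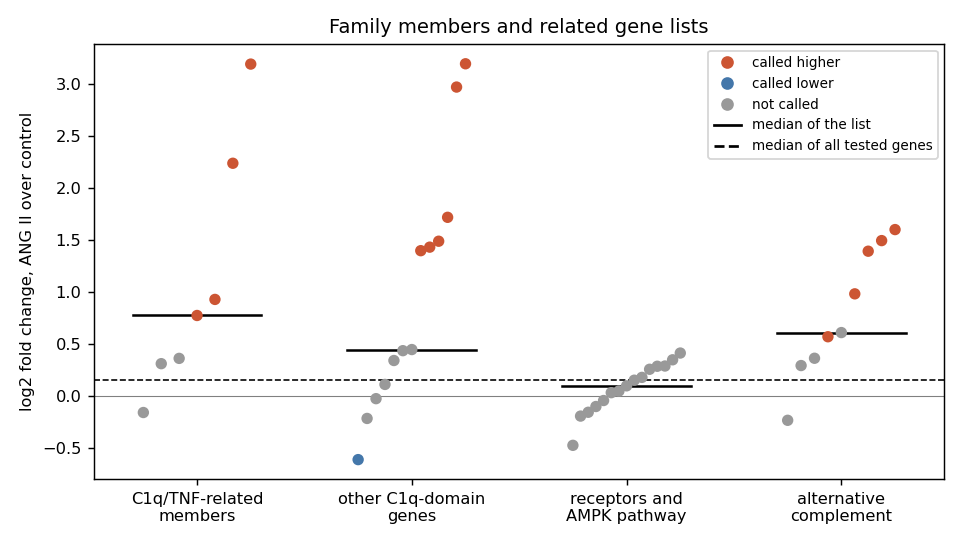
Log2 fold change of ANG II over control (vertical axis) for the tested genes of the family and of 3 related lists, each point a gene, with calls coloured and the median of each list as a line. The medians are 0.77 for the family, 0.44 for other C1q-domain genes, 0.09 for receptors and AMPK and 0.61 for alternative complement, beside 0.15 for all genes (dashed). The family median includes C1qtnf6, whose rise posed the question, and C1qtnf3, which had to be high in ANG II to be tested. It is 0.56 without C1qtnf6 and 0.36 without both.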

How the data were processed

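RNA-seq of left ventricles gave 8 libraries, 4 control and 4 ANG II, grouped by their labels, and no column was left out (0 unmapped). The authors deposited 1 table of FPKM values, unpooled. The submitters' processing notes name Bowtie2, HISAT and RSEM without roles or versions. Build, annotation release and use of strand were not given in the sources used here. The extraction label names other cells than heart, so the tissue was checked by markers. Of 55679 genes, 55141 IDs were found in GENCODE M21 (GRCm38), and 27083 were at 0 in all libraries. Fragments were read from the steps of low values times mean transcript length, and among values under 60 fragments 97.9% to 98.2% (several exons) and 99.3% to 99.5% (1 exon) were whole within 0.1 of a fragment. The interval of the C1qtnf3 fragment ratio covers counting error only, and the other intervals come from the spread between libraries. A count of 3 fragments was taken as a floor.

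limma 3.58.1 (R 4.3.3; lmFit, eBayes with a variance trend) was run on log2(FPKM + 1) with all libraries and no covariate, for the 19364 genes that averaged 0.1 FPKM or more. P-values were two-sided with Benjamini-Hochberg adjustment over all of them. The study names limma with an adjusted p of 0.05 and a log fold change of 0.5, and does not give the base. Base 2, the pseudocount of 1 and the filter were choices made here. The labels do not say beyond the group which animal gave a library, so p-values measure the spread between these samples. Pairs of members were compared with scipy 1.17.1 by exact permutation, for 6 pairs rather than the 8 planned, because C1qtnf4 and C1qtnf5 had no usable level. The limma step was tested on simulated data. Alternatives were other pseudocounts, filters, scalings, thresholds, a replicate block, limma voom on the recovered fragments and leaving out each library. The members, lists and tests were chosen with earlier results of these data known. Genes named were the 9 members, up to 3 called genes per list with the largest change, and the 5 genes most correlated with C1qtnf6 by each of 2 measures, and others are marked in the text. Upstream windows came from RefSeq (GRCm38.p6). The values of 1 gene of the complement list are not reported here.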

Additional observations from a re-analysis of the deposited data

Results flagged for a closer look

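Of the 16 groups of 4 libraries examined (8 members in each condition, C1qtnf5 being at 0 throughout), 2 held a library that stood apart by Dixon's test, a measure of the gap to the nearest library over the range of the group. Chance flags about 5% of groups. C1qtnf6 in control 2 was 9.43 FPKM, the highest of the controls, with the next at 5.82 FPKM. Without control 2 the log2 fold change of C1qtnf6 was 2.40 (SE 0.064), against 2.23 with all libraries. C1qtnf4 in ANG II 1 was 0 FPKM, while each of the other ANG II libraries had 2 fragments, so the difference is a matter of 2 fragments.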

How the results depend on the processing

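Depth limits C1qtnf3 in control (2 to 4 fragments a library) and C1qtnf4 (0 to 5). All 8 libraries come from 1 time and dose. The number of members called higher was 4 and of members called lower 0 in every leave-one-out fit, and 2 were called higher with an absolute log2 fold change above 1. Genes called higher numbered 1671 with median-of-ratios scaling, 1413 with quantile normalization and 767 with the threshold of 1, and genes called lower 803, 986 and 28 in the same order, against 2708 and 273. Leaving out each library gave 2505 to 2838 and 247 to 298. No member, pair or count of calls turned its direction under the alternatives run. By limma adjusted p alone, quantile normalization gave more genes lower (15.3%) than higher (12.5%), where 28.4% were higher with the deposited scaling. The median over the receptor and AMPK list went from 0.09 to -0.13 with median-of-ratios scaling and -0.12 with quantile normalization, and the median of all genes from 0.15 to -0.04 with the latter. Leaving out each library gave the rise of C1qtnf6 over that of C1qtnf1 as 1.77 to 2.00, of C1qtnf2 as 1.14 to 1.44, of C1qtnf7 as 1.36 to 1.60, of C1qtnf9 as 2.25 to 2.59, of C1qtnf12 as 1.84 to 2.11, and of C1qtnf3 as -1.27 to -0.73. The last was -3.14 with a pseudocount of 0.1, and a pseudocount weighs most on genes near 0.

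Same-numbered libraries did not deviate together (r from -0.0433 to 0.0921, other pairs -0.118 to 0.148). This cannot exclude a pairing that leaves no shared deviation, and the labels do not say whether equal numbers pair the samples. With a replicate block, limma called 2700 genes higher and 268 lower and the 4 members. In the pairs, the block left the differences at 1.88 (C1qtnf1), 1.31 (C1qtnf2), 1.46 (C1qtnf7), 2.40 (C1qtnf9) and 1.93 (C1qtnf12), each with an adjusted sign-flip p of 0.15, where the smallest exact sign-flip p is 0.125, so that test cannot pass the threshold. Quantile normalization took C1qtnf7 to 0.46, without a call.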
